A study of Penicillium oxalicum with 15 samples.

Results

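The comparison sets 3 libraries of Penicillium oxalicum strain EU2101 grown on WR against 3 libraries of the same strain grown on WB with AV added (WB_AV), 6 of the 15 libraries of the series. Members were found by title and growth label, and all genes were described. The labels give the carbon sources as abbreviations. WB, AV and RS are read here as wheat bran, Avicel (a purified microcrystalline cellulose) and rice straw, and the titles write WB_RS for the libraries that the growth field calls WR. The growth field writes WB plus WA for the libraries titled WB_AV. Both groups were mycelium from still solid-state cultures kept for 5 days at 28 °C with 10 g of carbon source, so that bran is shared and the supplement differs. The 3 EU2101 libraries on WB alone served as a reference level and helped to estimate the spread, and 6 libraries of the strains MuKu70 and MuPOX03016 on WR are used in 1 paragraph at the end. The labels do not say how EU2101 was made or whether replicates were separate cultures, so a p-value measures only the spread between these libraries, part of which may be technical.

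Filamentous fungi that live on dead plants secrete sets of hydrolases. Cellobiohydrolases and endoglucanases cut the cellulose chain, β-glucosidases split the released cellobiose, and xylanases cut xylan, the main hemicellulose of grass cell walls. Avicel offers mostly cellulose, whereas straw offers cellulose together with xylan, lignin, silica and other wall material. The question of the comparison is which transcripts are higher or lower when the bran carries straw in place of pure cellulose. In a mycelium sample, a change in the number of expressing hyphae and a change in RNA per hypha cannot be told apart.

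The estimated counts summed to between 1863613 and 3152409 in the WB_AV libraries and to between 3372763 and 3414915 in the WR libraries, so every WR library was deeper, and the part of depth in the results was not tested. The WR libraries lay close together, with a median standard deviation of 0.17 over genes on the log2 scale of depth-scaled counts (CPM), against 0.30 for WB_AV and 0.37 for WB. Libraries with the same replicate number deviated together from their group means, with r of 0.322, 0.431 and 0.229 across genes for numbers 1, 2 and 3 of WR and WB_AV, and the number was fitted as a pair. For WR and WB, whose libraries share that fit, r was 0.083, 0.290 and 0.162, and the highest r between libraries with different numbers was 0.142, for WB_AV replicate 1 and WR replicate 3. Replicate 1 of WB stood with the WB_AV libraries and apart from the other WB libraries. None of the 9512 identifiers in the files matched the gene table at hand, so genes are given by identifier.

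**Figure D1:**
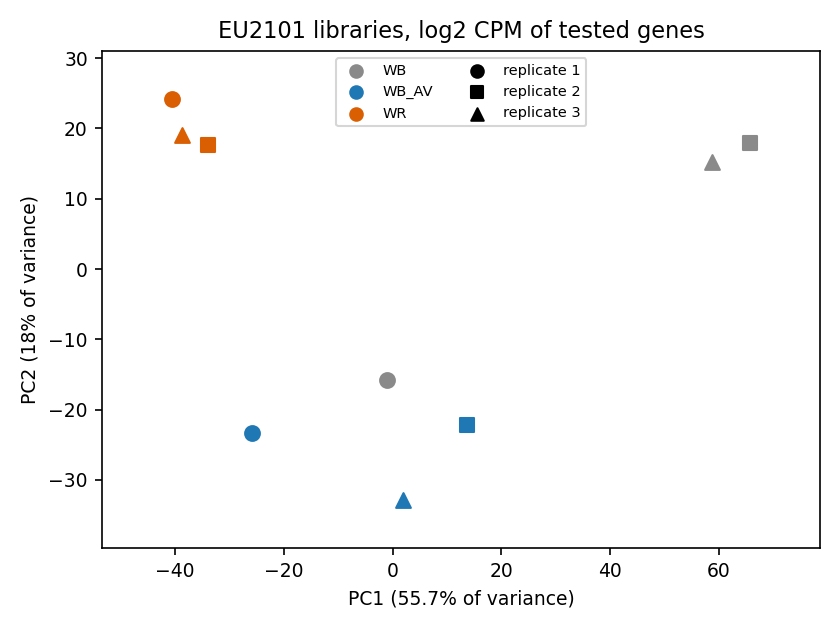
Principal components of the 9 EU2101 libraries from log2 CPM of the 8079 tested genes, coloured by carbon source and shaped by replicate number. The 3 WR libraries form a tight group, the WB_AV libraries are spread along the first axis (55.7% of variance), and WB replicate 1 lies near WB_AV.

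Between the straw and the Avicel cultures 873 of 8079 tested genes differed (10.8%), of which 484 (5.99% of tested genes) were higher on WR and 389 (4.81%) lower, at an adjusted p under 0.05 in the paired edgeR fit. The rises were larger than the falls. The median log2 fold change was 1.48 among the higher genes and -1.10 among the lower ones, and the median over all tested genes was 0.006. At least 2-fold differences were found in 351 higher and 234 lower genes, at least 4-fold in 132 and 61, and at least 16-fold in 7 and 4. All 873 genes moved the same way in all 3 pairs, a pattern that the paired fit favours. Of all tested genes, 20.3% (upward) and 28.8% (downward) also had it. The groups did not overlap in FPKM, the authors' level scaled by gene length and depth, for 461 of the higher and 305 of the lower genes, against 13.4% and 16.1% of all tested genes.

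The number of calls depended on the libraries in the fit. Without the pairing 411 genes passed, 261 of the higher and 149 of the lower genes among them. The 6 libraries alone gave 1639 genes and the fit without WB replicate 1 gave 1926, and the latter held all 873. Leaving out WB replicate 2 or 3, added after seeing the data, gave 791 and 784. With replicate 2 or 3 of WB_AV left out 312 and 287 genes passed, and with replicate 2 or 3 of WR left out 382 and 314. The genes called in each of the 6 fits with a WR or WB_AV library left out numbered 166 higher and 83 lower. No called gene changed sign in any of the 20 alternatives. These genes were picked by the main fit and the alternatives share its libraries, so the steady sign is no separate support.

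**Figure D2:**
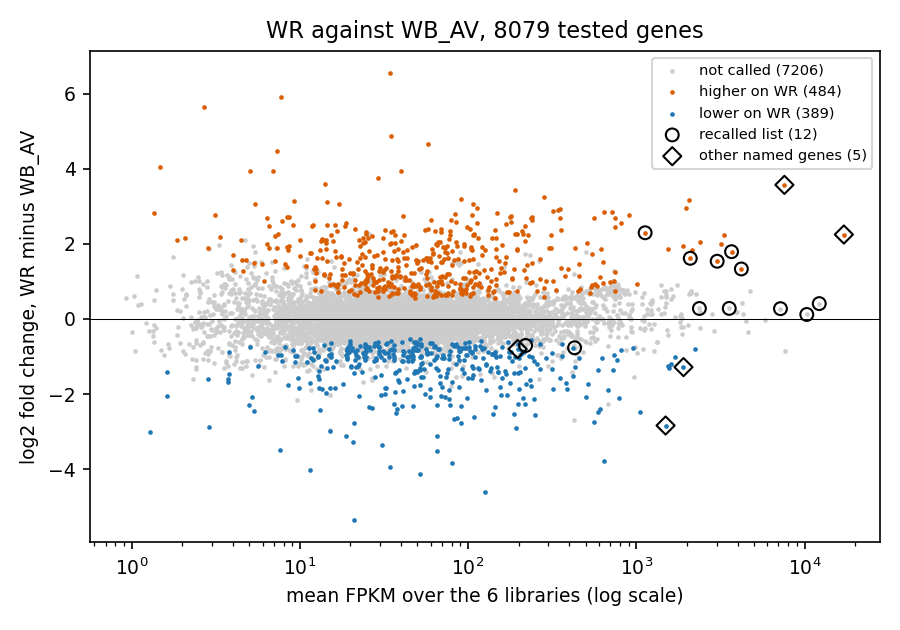
Log2 fold change of WR against WB_AV plotted against mean FPKM (log scale) for the 8079 tested genes, with 484 genes higher on WR in orange, 389 lower in blue and the rest in grey. Circles mark the 12 recalled enzyme genes and diamonds the 5 other named genes. The most abundant genes among these have positive log2 fold changes, but POX04786, POX01166 and POX05587 were not called.

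A list of 12 identifiers recalled from published quantitative PCR panels of cellulase and xylanase genes of this species was described by enzyme class. The classes rest on recall and on earlier knowledge of these data, and no file used here annotates the identifiers. Of the 12, 5 rose on WR and none fell at the threshold, against 5.99% and 4.81% of tested genes called in each direction. The 12 are all abundant, with a mean over both groups above 190 FPKM. Among the 808 tested genes from that level upward, 82 were higher and 63 lower (17.9% called). The rates over all tested genes are thus a low background for this list. The list's median log2 fold change was 0.35, against 0.01 over all tested genes. The class medians differed in size, at 1.54 for the 3 identifiers recalled as xylanases, 0.28 for the 6 recalled as endoglucanases, 0.34 for the 2 recalled as cellobiohydrolases and -0.71 for the single β-glucosidase.

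All 3 identifiers recalled as xylanases, which cut the xylan backbone, rose on WR. POX08484 stood at 2512, 1701 and 1067 FPKM in WB_AV replicates 1, 2 and 3 and at 7486, 4169 and 5171 FPKM on WR. Every WR library lay above every WB_AV library, a 3.46-fold rise (log2 fold change 1.79, SE 0.29, adjusted p = 0.00453 in edgeR). POX00063 gave 2693, 2801 and 1943 FPKM on WB_AV and 7141, 4593 and 6109 FPKM on WR. Its groups were also apart, with a log2 change of 1.33 (SE 0.30, adjusted p = 0.0213 in edgeR), and it was the 6th most abundant transcript on WR against the 21st on WB_AV. POX06783 rose from 3008, 1329 and 1005 FPKM to 5366, 3383 and 4065 FPKM, with a log2 change of 1.54 (SE 0.41, adjusted p = 0.0452 in edgeR). The groups did not overlap, but replicate 1 was the highest WB_AV library and came near the lowest WR library. Together the 3 identifiers took 0.928, 0.668 and 0.503% of the FPKM sum on WB_AV and 2.21, 1.35 and 1.71% on WR. These shares did not overlap (exact 2-sided permutation p = 0.1 unpaired and 0.25 paired, the lowest that 3 libraries a group and 3 pairs allow).

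On WB alone the 3 differed among themselves. POX00063 averaged 1890.5 ± 235.0 FPKM (SD, n = 3) on WB, 2479 ± 468 on WB_AV and 5948 ± 1282 on WR, and its difference between WB_AV and WB did not pass (log2 fold change 0.35, adjusted p = 0.486 in edgeR). POX06783 averaged 212.4 ± 245.0 FPKM on WB, 1781 ± 1075 on WB_AV and 4271 ± 1007 on WR, with log2 fold changes of 3.43 for WB_AV and 4.97 for WR against WB (adjusted p = 0.00845 and 0.000258 in edgeR). The comparisons with WB share libraries with each other and with the main one, and are given side by side only.

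Of the 6 identifiers recalled as endoglucanases, which cut inside the cellulose chain, 2 rose and 4 did not pass. POX07535 stood at 547.0, 423.3 and 274.2 FPKM on WB_AV and at 2050.3, 1483 and 1996 FPKM on WR. This was the largest rise of the list, 4.91-fold, with WR to WB_AV ratios of 3.74, 3.50 and 7.26 in pairs 1, 2 and 3 (log2 fold change 2.30, SE 0.32, adjusted p = 0.00256 in edgeR). It passed in all 20 alternatives. POX06147 gave 1740.3, 695.6 and 898.1 FPKM on WB_AV and 4047, 2155 and 3028 FPKM on WR, a 3.07-fold rise (log2 fold change 1.62, SE 0.31, adjusted p = 0.0106 in edgeR). POX01166, among the most abundant transcripts of both groups, averaged 10229.5 ± 3172 FPKM on WB_AV and 10407 ± 2281 FPKM on WR (SD, n = 3). Its groups overlapped widely, at a log2 change of 0.12 (SE 0.31, adjusted p = 0.855 in edgeR), and the sign turned without WB_AV replicate 3 (-0.02) or WR replicate 3 (-0.18). POX01896 and POX05571 both had a log2 change of 0.28 (adjusted p = 0.527 and 0.558). POX02740 stood at 419.1, 924.5 and 380.1 FPKM on WB_AV and lower, at 330.8, 211.0 and 313.0 FPKM, on WR, with a log2 change of -0.77 (SE 0.42, adjusted p = 0.288 in edgeR) that did not pass.

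The identifiers recalled as cellobiohydrolases, which release cellobiose from chain ends, did not pass between the cellulose supplement and straw. POX04786, the most abundant transcript on WB_AV, gave 12231, 12792 and 7687 FPKM there and 15610.5, 11608 and 13503 FPKM on WR. The groups overlapped, with ratios of 1.28, 0.91 and 1.76 in the 3 pairs and a log2 change of 0.41 (SE 0.32, adjusted p = 0.462 in edgeR). POX05587 gave 6145, 8307 and 5793 FPKM on WB_AV and 8212, 6272.5 and 8453 FPKM on WR, with a log2 change of 0.28 (SE 0.34, adjusted p = 0.661 in edgeR). Both had risen on either supplement against bran, POX04786 from 2854 ± 1171 FPKM and POX05587 from 1969 ± 407 FPKM on WB (SD, n = 3), with log2 fold changes of 1.95 and 1.73 for WB_AV (adjusted p = 0.016 and 0.0262 in edgeR) and 2.36 and 2.0 for WR (adjusted p = 0.00138 and 0.00352). The identifier recalled as a β-glucosidase, POX06835, stood at 183.7, 352.3 and 309.3 FPKM on WB_AV and at 135.7, 178.6 and 159.7 FPKM on WR. All WR libraries lay below all WB_AV libraries, but the log2 fold change of -0.71 (SE 0.28, adjusted p = 0.144 in edgeR) did not pass. It passed without WB replicate 1 (adjusted p = 0.0127), in the 6 libraries alone (0.0293) and without WR replicate 1 (0.0237).

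The 12 identifiers together took 5.66, 5.03 and 3.92% of the FPKM sum on WB_AV and 7.82, 5.21 and 6.71% on WR. The share was higher on WR in each of the 3 pairs while the groups overlapped (exact 2-sided permutation p = 0.2 unpaired and 0.25 paired, the latter the lowest that 3 pairs allow). WR replicate 2 was the lowest WR library for 11 of the 12 identifiers, and WB_AV replicate 3 the lowest WB_AV library for 10. Of the 5 called members, POX08484 was lost without WB_AV replicate 3 (adjusted p = 0.0568), POX00063 without any WB_AV replicate or without WR replicate 3 (adjusted p of 0.0675 to 0.161), and POX06147 and POX06783 with any WB_AV library or with WR replicate 2 or 3 left out (adjusted p of 0.0519 to 0.0849 and 0.137 to 0.254). Of the fits with a WB library left out, only that without replicate 2 lost a member, POX06783 (adjusted p = 0.064 in edgeR). Both of the latter were also lost without the pairing (adjusted p = 0.176 and 0.33 in edgeR), and POX06783 with scaling by library totals (0.0557) and in limma on log2(FPKM + 1) (0.0872), with 0.0973 and 0.0733 at pseudocounts of 0.1 and 5.

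**Figure D3:**
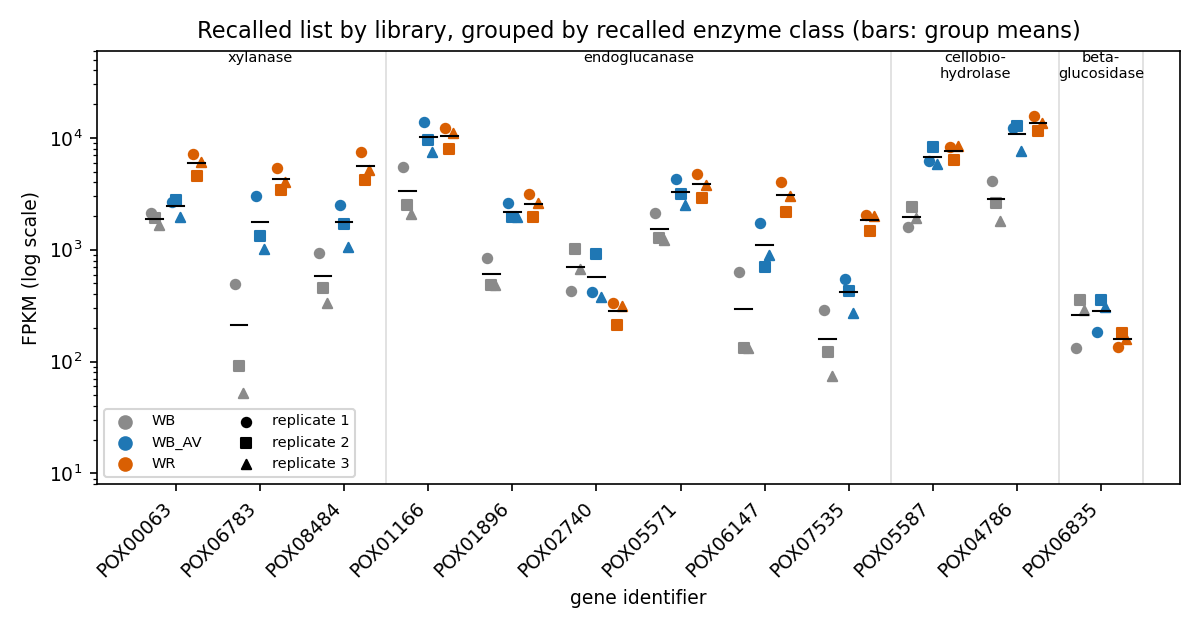
FPKM (log scale) of the 12 recalled identifiers in each EU2101 library, coloured by carbon source and shaped by replicate number, with bars at group means. The xylanase identifiers, POX06147 and POX07535 stand higher on WR than on WB_AV, while the cellobiohydrolase identifiers and POX01166 overlap between these groups.

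Outside the list, the transcripts described next were chosen by their difference in mean FPKM, a rule that favours abundant transcripts. The files give no function for them. POX01764 stood at 13572, 6385 and 3170.5 FPKM on WB_AV and at 25933, 29594 and 24185 FPKM on WR, where it was the most abundant transcript with 2.95 ± 0.308% of the FPKM sum (SD, n = 3). Its groups were apart although the WB_AV libraries spread widely (log2 fold change 2.25, SE 0.52, adjusted p = 0.025 in edgeR). The call was lost without the pairing (adjusted p = 0.221), in limma on log2(FPKM + 1) (0.0704) and the other 2 pseudocounts (0.0752 and 0.0621), and with any WB_AV library or WR replicate 2 or 3 left out (0.0923 to 0.174). It was kept with any WB library left out. Its counts were not whole in 3 of the 6 libraries, so reads may have been divided with another gene. POX03430 gave 791.6, 3212 and 817.9 FPKM on WB_AV and 15238, 12033 and 13487 FPKM on WR. It moved from rank 50 to rank 2, an 11.9-fold rise (log2 fold change 3.57, SE 0.61, adjusted p = 0.00636 in edgeR), and was lost without WB_AV replicate 3 alone (0.0574). On WB alone it stood at 1767, 7196 and 5013 FPKM. The WB mean lay between those of the 2 groups, but WB replicate 1 lay within the range of WB_AV.

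The largest falls in level had different reference levels on bran. POX09358 stood at 3147, 2136 and 2725 FPKM on WB_AV and at 174.7, 339.8 and 438.0 FPKM on WR, with 520.4, 48.7 and 31.9 FPKM on WB. It was high in the cultures with AV and low in the others (log2 fold change of WR against WB_AV -2.84, SE 0.77, adjusted p = 0.0469 in edgeR), and in WB_AV against WB it rose by 4.32 on the log2 scale (adjusted p = 0.027). The call between WR and WB_AV was lost without the pairing (adjusted p = 0.0786), at a minimum count of 50 and in limma on log2(FPKM + 0.1) (0.0534 in both), and with any WB_AV library or WR replicate 2 or 3 left out (0.0662 to 0.256). It was kept with any WB library left out. POX09387 gave 2267, 2638.5 and 3304 FPKM on WB_AV, 944.3, 960.2 and 1336 FPKM on WR, and 3372, 2827 and 3667 FPKM on WB. It was low on WR only among these 3 carbon sources, with log2 fold changes of -1.28 against WB_AV (SE 0.23, adjusted p = 0.00812 in edgeR) and -1.59 against WB (adjusted p = 0.00158). Leaving out WB_AV replicate 2 or 3 gave adjusted p = 0.0635 and 0.0604 for the first of these.

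POX03016, the gene that the mutant strain of the series is named for, was lower on WR within each pair. It gave 109.3, 444.9 and 214.4 FPKM on WB_AV and 75.5, 241.0 and 98.3 FPKM on WR, so that the groups overlapped while the paired ratios were 0.69, 0.54 and 0.46. Replicate 2 was the highest library in both groups. The paired estimate, a log2 change of -0.80 with SE 0.20 (adjusted p = 0.0329 in edgeR), rests on the pairing, without which the adjusted p was 0.512. It was also lost without WB_AV replicate 2 or 3 or WR replicate 2 or 3 (adjusted p of 0.147 to 0.211), and without WB replicate 2 or 3 (0.0523 and 0.052).

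**Figure D4:**
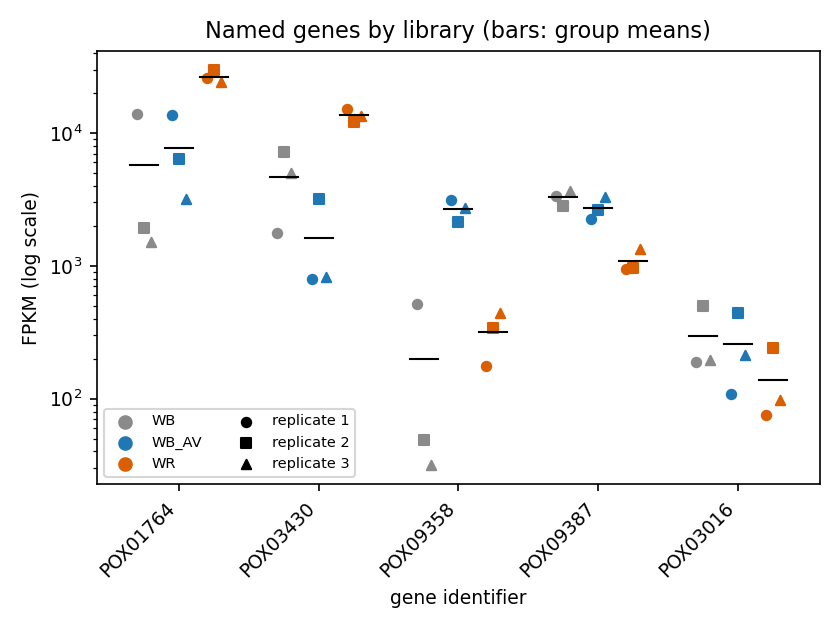
FPKM (log scale) of POX01764, POX03430, POX09358, POX09387 and POX03016 in each EU2101 library, coloured by carbon source and shaped by replicate number, with bars at group means. POX01764 and POX03430 are highest on WR, POX09358 is high on WB_AV alone, POX09387 is lowest on WR, and POX03016 overlaps between groups with replicate 2 highest in each.

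Many of the called genes carried consecutive identifier numbers. In fungal genomes, genes of secondary metabolism or of the use of a nutrient often lie side by side and are expressed together. Whether the numbers of these identifiers follow the chromosomes is not given in the sources used here. Of 403 higher genes whose next number was also tested, that next gene was also higher in 86 (21.3%), against 5.99% of all tested genes, and of 313 lower genes it was also lower in 54 (17.3%), against 4.81%. There were 7 runs of at least 4 consecutive numbers called in the same direction, 3 higher and 4 lower, which held 37 genes in all. The ends of a run are set by the call threshold. All 37 had whole counts in the 6 libraries, where only 0.18 to 0.31% of listed counts were not whole. Their groups did not overlap in any case, as for 461 of the 484 higher and 305 of the 389 lower genes. Without the pairing 1 run of this length, POX07482 to POX07485, was called. The 6 libraries alone gave 16 runs, and the fit without WB replicate 1 gave 23. That last fit was planned for the gene counts but was used for the runs only after seeing the data.

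The longest run was the 9 identifiers from POX05863 to POX05871, all higher on WR. Their summed level was 1012.5, 648.5 and 383.5 FPKM in WB_AV replicates 1, 2 and 3 and 2472, 2739 and 2396 FPKM on WR. The single log2 fold changes lay between 0.81 and 2.69, with a median of 1.84. The numbers beside the run, POX05862 and POX05872, had log2 fold changes of 1.7 and 0.63 and were not called. On WB the sum was 841.5 FPKM in replicate 1 but 166.7 and 163.4 FPKM in the others. Replicate 1 of WB thus lay above WB_AV replicates 2 and 3, and 1 of the 9 members was called higher on WB_AV than on WB. With each WR or WB_AV library left out in turn, 1 of the 9 passed every time, against 166 of all 484 higher genes. Without the pairing 3 of the 9 passed, against 261 of the 484. The 2 other higher runs had 5 members each. POX09467 to POX09471 summed to 260.6 ± 115.8 FPKM on WB_AV and 1080.5 ± 55.0 FPKM on WR (SD, n = 3). Just after it, POX09472 was not called (log2 fold change 1.8), and POX09473 and POX09474 were called higher on WR (2.44 and 2.04). POX00004 to POX00008 summed to 147.4 ± 35.6 and 590.2 ± 76.2 FPKM, and stood at 222.4 ± 51.6 FPKM on WB. In each of these 3 of 5 members passed with every WR or WB_AV library left out in turn, and without the pairing 3 and 4 were called.

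The sharpest fall of a run was that of the 4 identifiers from POX07482 to POX07485, whose sum was 486.3, 491.6 and 687.5 FPKM on WB_AV and 70.2, 39.1 and 54.6 FPKM on WR. On WB the sum was 666.1, 597.5 and 1000.2 FPKM, so the run was high in both cultures without straw and low with it. The log2 fold changes of WR against WB_AV lay between -4.14 and -2.60. All 4 members were called without the pairing and with each WR or WB_AV library left out, against 149 and 83 of all 389 lower genes. The neighbouring numbers POX07481 and POX07486 had log2 fold changes of -0.16 and -0.22 and were not called.

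The run from POX09357 to POX09361 holds POX09358 and had the opposite reference level. It summed to 4536.5, 3055 and 4346 FPKM on WB_AV and to 346.2, 586.6 and 746.6 FPKM on WR, while WB gave 835.2, 155.1 and 131.1 FPKM. All 5 members were also higher on WB_AV than on WB, with a median log2 fold change of 3.15, so these were genes high with the cellulose supplement and low with straw as well as on bran alone. The next number, POX09362, was not called (log2 fold change -0.12), and the 3 after it, POX09363 to POX09365, were called lower on WR (-2.05, -2.31 and -2.46). Just before the run, POX09356 was not called (0.33), and POX09354 and POX09355 were called lower on WR (-2.02 and -1.51). In this run 2 of 5 members passed with each WR or WB_AV library left out and 4 without the pairing. The median log2 fold changes of the remaining lower runs were -1.38 and -1.24. POX09334 to POX09338 summed to 928.7 ± 256.5 FPKM on WB_AV and 331.9 ± 39.1 FPKM on WR (SD, n = 3), and POX00121 to POX00124 to 3363 ± 765 and 1342 ± 269.5 FPKM. In each of these runs 1 member passed with every WR or WB_AV library left out in turn, and without the pairing 4 of 5 and 2 of 4 were called.

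**Figure D5:**
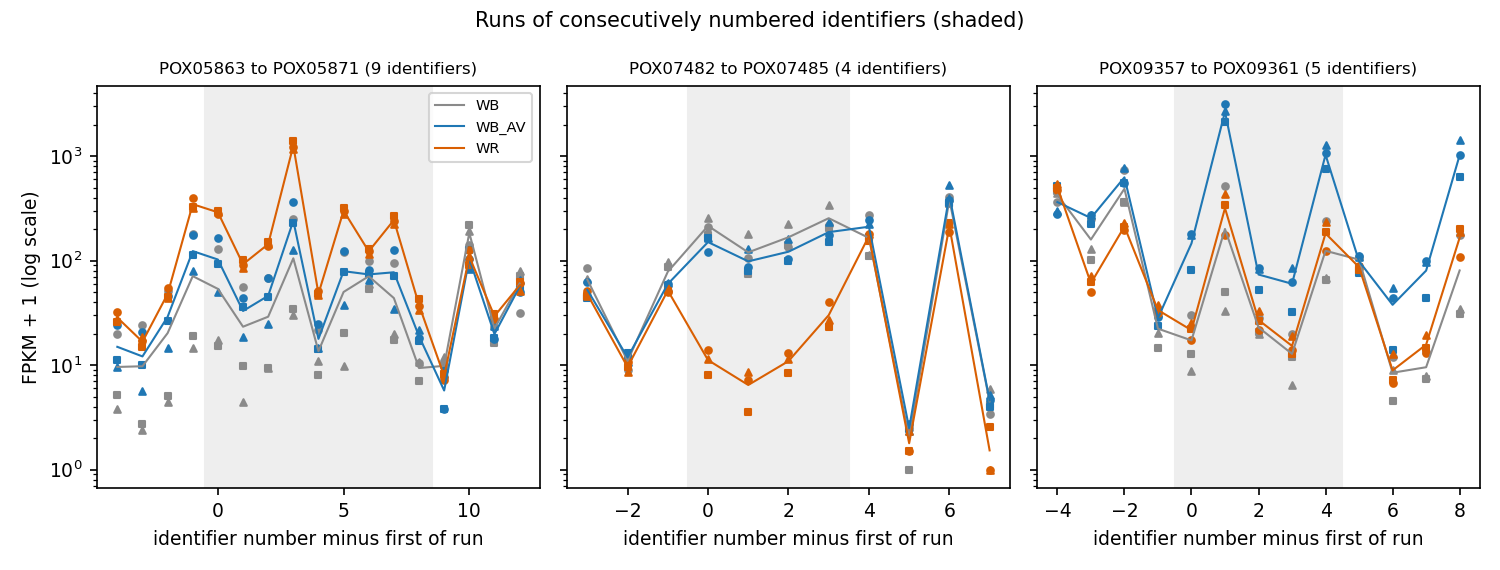
FPKM + 1 (log scale) of the identifiers in 3 runs (shaded) and of up to 4 identifiers on each side, against identifier number counted from the first of the run, with a line for each carbon source's mean and a point for each library. POX05863 to POX05871 lie highest on WR, POX07482 to POX07485 are lowered on WR alone, and POX09357 to POX09361 are raised on WB_AV alone.

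For the called genes, the level on bran alone was set beside those on WB_AV and WR. The 484 genes higher on WR had a median level of 25.9 FPKM on WB, 29.7 FPKM on WB_AV and 74.6 FPKM on WR, and the WB mean lay below both groups for 320, between them for 157 and above both for 7. The 389 lower genes had medians of 59.0 FPKM on WB, 73.9 FPKM on WB_AV and 29.5 FPKM on WR. For these the WB mean lay above both groups for 141, between them for 212 and below both for 36, the last being genes such as those of the POX09357 run. Replicate 1 of WB, which stood with the WB_AV libraries, is part of these WB means. The genes were picked for their gap between WR and WB_AV, and the same placement was not counted over all tested genes. The placement therefore does not show on which side a difference lay. The WR transcriptome was also more concentrated in its top genes than that of WB_AV. The 100 most abundant transcripts of each library took 32.7, 29.2 and 31.6% of the FPKM sum on WR and 27.2, 28.4 and 24.4% on WB_AV. The exact 2-sided permutation p was 0.1 unpaired and 0.25 paired, each the smallest possible. On WB these transcripts took 25.5, 29.8 and 28.9%, which overlaps with WR.

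The mutant libraries, which are independent of the 6 libraries compared, gave values on WR for most of the called genes. They summed to 6609605 to 7335888 estimated counts, and 13.37 to 14.18% of their listed counts were not whole, against 0.17 to 0.31% in EU2101. In MuPOX03016 against MuKu70, 7.55% of the 7931 tested genes were lower and 10.8% higher in edgeR. Of the 484 genes higher on WR, 432 were tested there, and 98 of these (22.7%) were lower in MuPOX03016 and 52 (12%) higher. The 98 make up 16.4% of all genes lower in that mutant, while the 432 are part of the 7931 tested genes. Of the 389 genes lower on WR, 366 were tested there, and 88 of these (24%) were higher in MuPOX03016 and 46 (12.6%) lower. The 88 make up 10.3% of all genes higher in MuPOX03016, while the 366 are part of the 7931. The median log2 fold changes in the mutant were -0.15 for the genes higher on WR and 0.21 for those lower on it.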

How the data were processed

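Per the file headers, every deposited file holds 1 library with, for each gene, an expected count (the authors' estimate of its reads) and an FPKM value (the authors' level per gene length and depth). A gene missing from a file was set to 0. The submitters' processing notes name RSEM 1.2.12, Bowtie2 2.1.0, BWA 0.7.10-r789 and DESeq2, without roles. No genome build or annotation is named in the sources used here. Counts of reads that 2 genes share can be split between them, and 0.17 to 0.31% of listed EU2101 counts were not whole, against 13.37 to 14.18% in the mutant libraries.

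Counts of the 9 EU2101 libraries were rounded and fitted in edgeR 4.0.16 (R 4.3.3) with terms for group and replicate number. Scaling was by TMM, filterByExpr kept genes at its minimum count of 10, and the quasi-likelihood test was adjusted by Benjamini-Hochberg over all tested genes, with a threshold of 0.05. The mutant libraries had their own fit, without the replicate number. The plan of the comparison paired libraries by replicate number. Same-numbered libraries of WR and WB_AV deviated together, with every r over 0.1, while replicate 1 of WR and WB gave 0.083. Alternatives used edgeR, DESeq2 1.42.0 and limma 3.58.1. Pair ratios are of FPKM + 1. Replicates differed by more than sampling noise, with a chi-square of 8.0 to 34.4 per degree of freedom.

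Named genes are POX03016, the recalled list and, outside it, the 2 called identifiers that rose most and the 2 that fell most in mean FPKM, among those with at least a 2-fold change and groups apart. Identifiers at the ends of runs and beside them are named in addition. The members and lists were chosen with earlier results of these data known.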

Additional observations from a re-analysis of the deposited data

How the results depend on the processing

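Without a replicate block 411 genes passed between WR and WB_AV (262 higher, 149 lower), with 3 list members called and 1 run. The fit with the replicate block on the 6 libraries alone called 1639 (830 higher, 809 lower) and gave 16 runs. The fit without WB replicate 1 called 1926 (962 higher, 964 lower) and gave 23 runs, and the fits without WB replicate 2 or 3, chosen after seeing the data, called 791 and 784. In limma on log2(FPKM + 0.1), 287 were higher. Over the other 9 settings of scaling, filter, unit and tool, 593 to 961 genes passed and the list median stayed between 0.28 and 0.36. With each WR or WB_AV library left out in turn, 287 to 1225 genes passed (188 to 681 higher, 99 to 544 lower), 1 to 5 list members were called, and the list median was 0.16 to 0.63. Of the named genes, POX01166 changed sign (-0.02 without WB_AV replicate 3 and -0.18 without WR replicate 3, in a range up to 0.30 over the 6 left-out libraries), and the list's share of FPKM was higher on WR throughout. The cause of these shifts was not tested. Depth limits the weakest genes, since a gene below about 10 counts was not tested.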

Other observations

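The share of genes called rose with level. In the tenth of tested genes with the lowest mean FPKM 8.54% were called (42 higher, 27 lower), and in the tenth with the highest, from 190 FPKM upward, 17.9% (82 higher, 63 lower). Counts also rise across these classes, and their part in the result was not tested.

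Few transcripts were read in 1 of the groups alone. There were 24 genes with counts in all 3 WR libraries and in no WB_AV library, and 1 gene the other way round. None of the 24 was tested, since no library held more than 9 counts of any of them. The WR libraries were the deeper ones, and the part of depth in this count was not tested.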
